A study of Mus musculus and Homo sapiens with 12 samples.

Results

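CUT&Tag peaks were examined at 9 genes of the EGF system, the receptors EGFR, ERBB2 and ERBB3 and the ligands EGF, TGFA, AREG, EREG, HBEGF and BTC, of 20033 protein-coding genes in the human annotation. The same 9 names in title case were taken among 21887 protein-coding mouse genes. Each gene was extended by 10 kb on both sides, and every peak that overlapped this window was taken. Overlapping peaks of a library were merged to regions, and a region of both replicates is a stretch of merged regions in which both libraries had a peak. In CCD841 cells the 9 windows held 44 of 108536 such regions for H3K18bu and 45 of 90476 for H4K12bu. In mouse large intestine the windows contained 29 of 43739 H3K18ac regions, 23 of 42262 H4K12ac regions, 9 of 8319 H3K18bu regions and 8 of 9920 H4K12bu regions. The genes were chosen with region counts of these libraries known, so counts and places of regions at these genes are given as descriptions, without p-values.

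The study mapped histone butyrylation (Kbu) at lysine 18 of H3 and lysine 12 of H4 in 12 libraries, with acetylation (Kac) of the same residues in mouse. CCD841 cells derive from the epithelium of normal human colon, and all 4 of their libraries, 2 for H3K18bu and 2 for H4K12bu, came from cells given 1 mM sodium butyrate (NaBu) for 12 to 16 h by the labels. No untreated CCD841 library was analysed here, so no value measures a response to NaBu. The 8 mouse libraries came from large intestine of male CETP-ApoB-100 transgenic mice, with tissue of 2 mice per condition and 2 libraries each for H3K18bu, H4K12bu, H3K18ac and H4K12ac. By the labels, the mice behind the Kbu libraries ate a diet high in fat and sucrose with 5% arabinoxylan, a cereal fiber, and those behind the Kac libraries ate the high fat, high sucrose (HFHS) diet. By these labels acyl group and diet differ together and cannot be told apart. The study's text names the arabinoxylan diet for the mouse CUT&Tag tissue as a whole. Its methods describe a low fat control group and a high fat, high sucrose group that later received 5% arabinoxylan. They describe no group that stayed on the HFHS diet without this fiber. The diet behind the Kac libraries is therefore uncertain, and fat and sucrose may also differ between Kbu and Kac libraries. The age of the mice was not given in the sources used here.

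EGFR, ERBB2 and ERBB3 are tyrosine kinase receptors of the cell surface, and with ERBB4 they form the ErbB family. Ligands are made as membrane proteins and are released by proteases of the ADAM family, after which a bound receptor pairs with another and signals through RAS and MAP kinases, PI3 kinase and AKT, and STAT3. ERBB2 has no known ligand of its own and acts as a partner, and ERBB3 has a weak kinase and recruits PI3 kinase. In the intestinal epithelium this signalling is known for driving proliferation of crypt cells and repair after injury. Butyryl and acetyl groups on histone lysines are found at active promoters and enhancers.

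Each listed peak has a fold over its local background, a −log10 p for that excess and a q-value, the p adjusted over the library. The pileup, the number of overlapping extended reads at the summit of a peak, was solved from fold and p and stands here for the depth behind a value. Its median over all peaks of a CCD841 library was 15 and 12 for replicates 1 and 2 of H3K18bu, and 15 and 7 for those of H4K12bu. H4K12bu replicate 2 stood apart, with a q-value below 0.05 at 54.8% of its regions against 100% in the other libraries, and results are given with each replicate on its own. In the mouse, 89.2% to 91.4% of the peaks of a Kbu library had a pileup of 1, against 12.8% to 72.1% in the Kac libraries. Among markers of the labelled epithelial cell type, 5 of 8 had an H3K18bu region of both replicates at a start site (CDH1, EPCAM, KRT8, LGALS4 and VIL1) and 3 of 8 had an H4K12bu region there (KRT18, KRT8 and LGALS4), where 44% and 35.4% of all protein-coding genes did. The epithelial genes CDH1, CDX2 and KRT20 had no H4K12bu region of both replicates in their windows. Markers of mesenchymal cells and fibroblasts had such start regions at 5 of 8 genes for H3K18bu, among them VIM, COL1A1 and FN1, and at 4 of 8 for H4K12bu. Smooth muscle markers had them at 3 of 4 genes for each mark, and the immune markers at 2 of 4. Over whole windows, a region of both replicates was present at 7 and 5 of 8 epithelial markers for H3K18bu and H4K12bu. Mesenchymal and fibroblast markers had one at 8 and 8 of 8, and smooth muscle markers at 4 and 4 of 4. Immune markers had one at 4 and 3 of 4, beside 75.8% and 76.6% of all genes. The median regions per 100 kb were 5.2 and 1.7 for epithelial and 8.0 and 6.2 for mesenchymal and fibroblast markers. They were 8.8 and 11.2 for smooth muscle and 5.95 and 5.98 for immune markers. For the 2 goblet markers, MUC2 and TFF3, they were 4.49 and 0.899, beside 3.78 and 4.56 over all genes. The goblet medians were thus the lowest of these lists for each mark, and the epithelial medians were next. Start regions were present at markers of each of these cell types except goblet cells, whose 2 markers had none for either mark. These counts are small and did not establish the epithelial label. The part of other cell types in the results was not tested.

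In CCD841 cells, EGFR carried most of the regions of the 9 genes, 31 of 44 for H3K18bu and 32 of 45 for H4K12bu. Receptors together held 34 and 42 regions and the 6 ligands held 10 and 3. At least 1 region of both replicates lay in the window of 8 of 9 genes for H3K18bu, every gene except BTC, beside 75.8% of all protein-coding genes. For H4K12bu it was 5 of 9, beside 76.6%, with no region at EGF, AREG, EREG or BTC. A region of both replicates within 1 kb of an annotated transcript start was present at 5 of 9 genes for H3K18bu (EGFR, ERBB2, EGF, AREG and EREG), beside 44% of all genes, and at 2 of 9 when equal numbers of strongest regions were taken from the libraries. For H4K12bu it was present at 3 of 9 (EGFR, ERBB2 and HBEGF), beside 35.4%, and none of these 3 lay at the outermost start of its gene. The median gene of the 9 had 3.2 H3K18bu and 0.788 H4K12bu regions per 100 kb, against 3.78 and 4.56 over all genes. EGFR was above these medians for both marks by a wide margin, ERBB2 for H4K12bu and AREG for H3K18bu. HBEGF, with 5.92 for each mark, and EREG, with 4.59 for H3K18bu, were above them by less, while ERBB3, EGF, TGFA and BTC were below them for both marks.

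**Figure D1:**
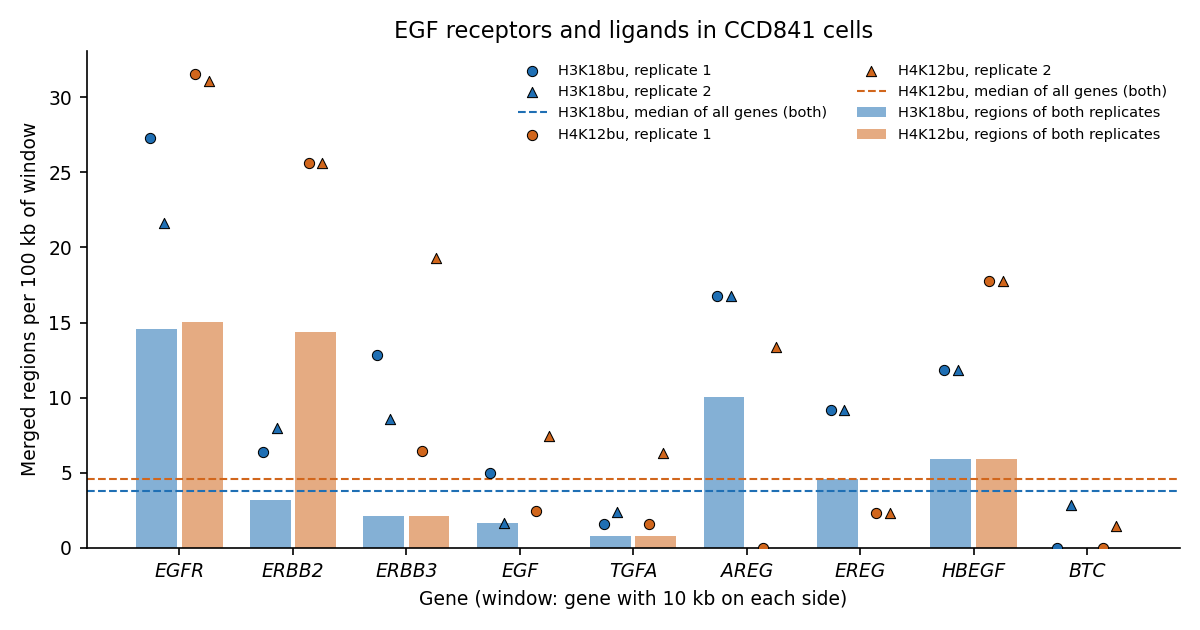
Merged regions per 100 kb of window for the 9 genes in CCD841 cells (vertical axis), with H3K18bu in blue and H4K12bu in orange. Bars give regions of both replicates, circles and triangles the 2 libraries on their own, and dashed lines the median of all genes (3.78 and 4.56). EGFR reaches 14.6 and 15.1, ERBB2 reaches 14.4 for H4K12bu, and BTC has no bar.

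EGFR, the receptor of EGF, lies on the forward strand of chromosome 7 from 55019017 to 55211628 in GRCh38. For H3K18bu its window held 58 merged regions in replicate 1, of which 32 overlapped a region of the other replicate, 55.2% beside 54.7% of all regions of that library, and 46 in replicate 2, of which 34 did, 73.9% beside 52.5%. For H4K12bu it held 67 in replicate 1, of which 34 did, 50.7% beside 45.0%, and 66 in replicate 2, of which 43 did, 65.2% beside 37.6%. Joined, these gave 31 and 32 regions of both replicates, and 21 for each mark when equal numbers of strongest regions were taken from the libraries. The 31 and 32 regions are 14.6 and 15.1 per 100 kb over a window of 212.6 kb, higher than at 96.3% and 94.3% of all genes. Since long windows hold more regions, EGFR was also set beside the 4549 genes with a window of at least 100 kb, where it ranked 129 for H3K18bu and 153 for H4K12bu in regions per 100 kb. The 3 such genes whose regions per 100 kb in the 4 libraries were nearest to those of EGFR, by Euclidean distance of log2 values, were VOPP1 at 0.201, GALNT10 at 0.207 and CUEDC1 at 0.221, among 4548 genes compared. VOPP1 lies on the same chromosome, 224.4 kb after the end of EGFR.

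The EGFR regions were also stronger than the usual region of the genome. The lower −log10 p of the 2 replicates had a median of 8.34 over the 31 H3K18bu regions, against 6.51 over all 108536, and 5.26 over the 32 H4K12bu regions, against 4.72 over all 90476. Of the EGFR regions, 9 of 31 and 9 of 32 were in the top 10% of their mark. The local background that the peak caller set against each peak was raised there as well. For H3K18bu replicate 1 the median background was 5.30 at peaks of the EGFR window against 2.64 at all peaks, and for replicate 2 it was 4.06 against 1.99. For H4K12bu replicate 1 it was 6.70 against 2.83, and for replicate 2 it was 2.57 against 1.05. The part of this raised background in the region counts was not tested. Replicates placed their summits within 50 bp of each other at 20 of 31 H3K18bu and 17 of 32 H4K12bu regions. H4K12bu replicate 1 had the higher −log10 p at 31 of 32 regions, and H3K18bu replicate 1 at 21 of 31.

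Most of these regions were intronic, as was most of the window, of which introns made up 79.0%, exons 6.35%, the surroundings of transcript starts 5.71% and flanks 8.94% of the bases. For H3K18bu, 27 of 31 lay in introns, 2 within 1 kb of a transcript start and 2 in the flanks, with none classed as exonic. For H4K12bu, 24 of 32 lay in introns, 5 over exons, 1 at a transcript start and 2 in the flanks. The first intron, which spans 122.9 kb, held 21 H3K18bu regions, or 17.1 per 100 kb, against 10.1 per 100 kb in the rest of the gene. H4K12bu was distributed the other way, with 16 regions or 13.02 per 100 kb in the first intron and 14 regions or 20.2 per 100 kb in the rest. With 2 libraries per mark this difference between the marks was not tested. The outermost start of EGFR had an H3K18bu region from 55018569 to 55019299 with pileups of 18 and 14 and −log10 p of 9.0 and 7.17, and no H4K12bu region of both replicates. At an internal transcript start, 173.5 kb into the gene, both marks had a region, from 55192026 to 55193069 for H3K18bu and from 55192068 to 55192728 for H4K12bu. Of the EGFR regions, 20 of 31 for H3K18bu overlapped one of H4K12bu and 20 of 32 for H4K12bu overlapped one of H3K18bu, 64.5% and 62.5%, where 34.4% and 41.8% of all regions of these marks did. The EGFR regions were also longer, with medians of 533 and 617.5 bp against 433 and 405 bp over all regions, and denser than at most genes. The part of length and density in this overlap was not tested. The strongest region outside the gene body lay in the flank past the 3′ end, from 55213288 to 55215020, with H3K18bu pileups of 42 and 35 and −log10 p of 23.1 and 22.1.

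**Figure D2:**
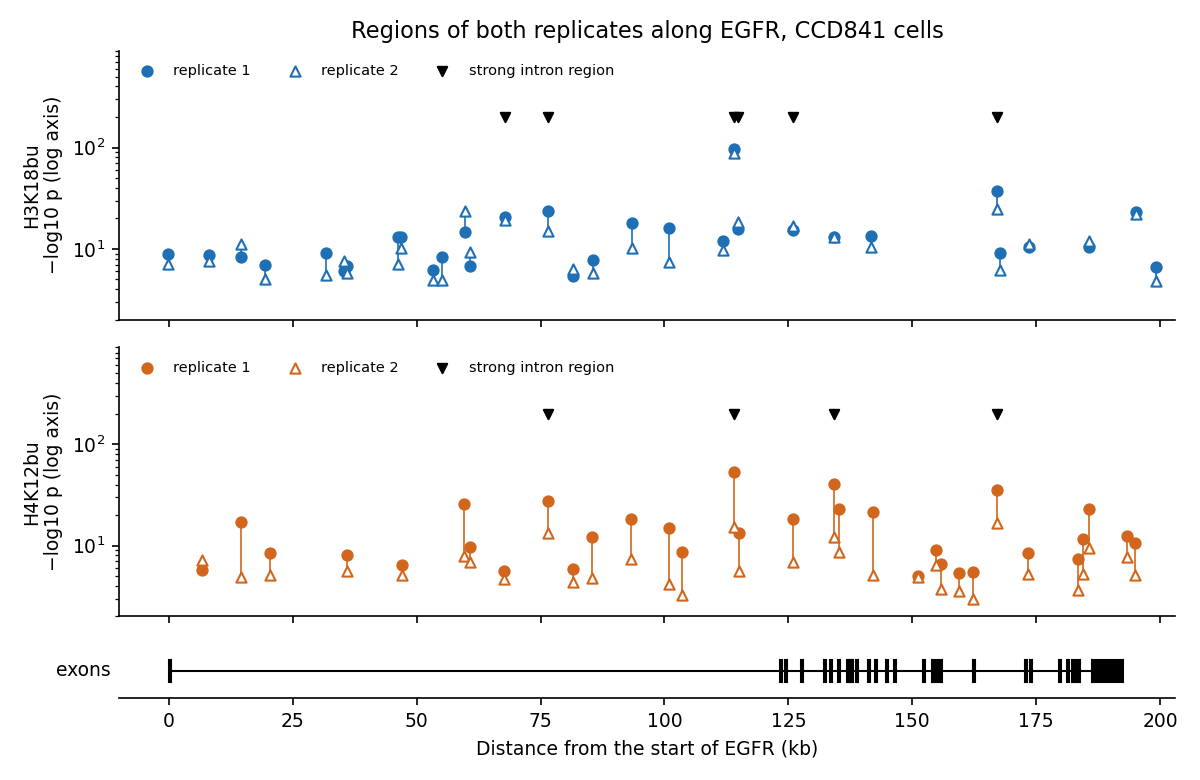
Regions of both replicates along EGFR in CCD841 cells by distance from the gene start (horizontal axis, kb) and −log10 p of each replicate (vertical log axis), above the exons of the gene as black boxes. Vertical lines join the replicates and black triangles mark the strong intron regions, 6 for H3K18bu and 4 for H4K12bu. The highest H3K18bu point, at 114.1 kb, reaches 95.7 and 87.9 in the 2 replicates.

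Strong intron regions were defined by the lower −log10 p of the replicates, as those in the top 1% of all regions of the mark, or in the top 5% where the top 1% held fewer than 3 in EGFR introns. For H3K18bu the top 1% held 2 and the top 5% held 6, and for H4K12bu the top 1% held 4. Since strength chose them, their values are descriptions. Places strong for both marks numbered 3, and their sequences are shown because they are the EGFR intron regions strong for both marks. The capitals mark an AP-1 site, TGACTCA or its reverse complement TGAGTCA, the sequence recognised by JUN and FOS dimers. The sequences are the forward strand of GRCh38, 200 bases around the H3K18bu summit for intron 1 at chr7:55133007-55133206 and intron 20 at chr7:55186348-55186547, and around the H4K12bu summit for intron 1 at chr7:55095398-55095597.
EGFR intron 1, 114.1 kb from the start: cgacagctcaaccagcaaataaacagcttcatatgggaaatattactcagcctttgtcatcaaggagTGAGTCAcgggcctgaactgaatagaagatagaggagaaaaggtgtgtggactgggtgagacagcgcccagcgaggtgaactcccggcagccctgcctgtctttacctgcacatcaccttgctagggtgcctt
EGFR intron 20, 167.2 kb from the start: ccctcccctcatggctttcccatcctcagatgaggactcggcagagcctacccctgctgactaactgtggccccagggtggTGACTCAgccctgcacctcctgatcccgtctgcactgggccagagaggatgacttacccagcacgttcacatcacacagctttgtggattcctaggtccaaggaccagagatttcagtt
EGFR intron 1, 76.5 kb from the start: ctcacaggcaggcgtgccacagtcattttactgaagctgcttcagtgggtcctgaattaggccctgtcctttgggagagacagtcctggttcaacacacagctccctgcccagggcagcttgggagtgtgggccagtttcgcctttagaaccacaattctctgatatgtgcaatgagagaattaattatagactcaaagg

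The first of these places had the strongest region of the gene. Its H3K18bu region ran from 55132662 to 55133480, near the 3′ end of intron 1, and stood at rank 13 of 108536. The pileups were 134 and 129 over backgrounds of 10.8 and 11.3, with folds of 11.5 and 10.6 and −log10 p of 95.7 and 87.9, so the replicates were close. For H4K12bu the region at this place, from 55132663 to 55133481, had pileups of 78 and 24, folds of 9.72 and 6.55 and −log10 p of 52.6 and 15.1, with rank 319 of 90476. Replicate 2 was the lower by far, as in most H4K12bu regions of the gene. The H3K18bu summits were at 55133107 and 55133113 and the H4K12bu summits at 55132908 and 55132913, outside the 200 bases shown.

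The region in intron 20, from 55185959 to 55186523, lay within EGFR-AS1, a long non-coding RNA gene on the opposite strand from 55179750 to 55188977, and the peaks carry no strand. Its H3K18bu pileups were 59 and 42 and its −log10 p 37.2 and 24.8. The H4K12bu pileups were 71 and 31 and the −log10 p 35.6 and 16.9, and it ranked 197 of 90476, the highest H4K12bu rank of an EGFR region. The place at 76.5 kb, from 55094944 to 55096038 for H3K18bu, had H3K18bu pileups of 46 and 33 and −log10 p of 23.7 and 15.1. Its H4K12bu region had pileups of 56 and 22 and −log10 p of 27.6 and 13.3. It held none of the 5 motifs searched within the bases shown.

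Strong H3K18bu regions at 55086559 to 55087224 and at 55133598 to 55134333 in intron 1, and at 55144168 to 55145654 in intron 3, had lower −log10 p of 19.2, 15.8 and 15.5. A strong H4K12bu region in intron 6, from 55153060 to 55153602, had −log10 p of 40.4 and 12.2. Near the threshold, the H3K18bu region at 76.5 kb was just inside with a lower value of 15.1 and the region from 55077907 to 55079538 just outside with 14.6. For H4K12bu the region in intron 6 was just inside with 12.2, and the region from 55204168 to 55205037 in intron 27 was next with 9.39.

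Motifs were searched on both strands in 300 bases around the summit of every region. AP-1 (TGACTCA) was found in 7 of 31 EGFR regions for H3K18bu, 22.6% beside 11.3% of all regions, and in 4 of 32 for H4K12bu, 12.5% beside 8.68%. TEAD (GGAATG) was found in 7 and 5 EGFR regions, 22.6% beside 19.8% and 15.6% beside 17.4%. TCF/LEF (CTTTGAT) was found in 0 and 2, beside 3.14% and 2.81% of all regions, KLF (CCACACCC) in 1 and 0, beside 4.09% and 4.71%, and CRE (TGACGTCA) in 0 of the regions of either mark, where 0.315% and 0.198% of all regions held it. These are matches of letters, given as descriptions.

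The surroundings of EGFR differed between its sides. In the 0.5 Mb before its window there were 5.40 H3K18bu and 2.20 H4K12bu regions per 100 kb, and in the 0.5 Mb after it 7.80 and 7.40, against 3.69 and 3.32 over all of chromosome 7. The window itself, at 14.6 and 15.1, was above both neighbouring stretches for both marks, and the H4K12bu value before the gene was below that of the chromosome.

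**Figure D3:**
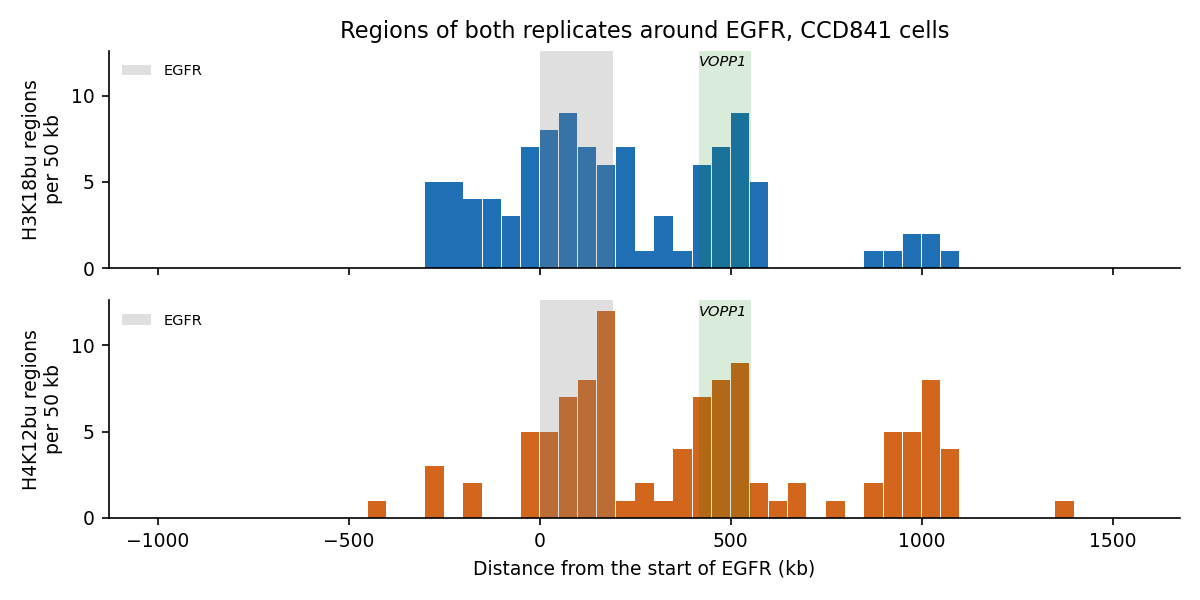
Regions of both replicates in bins of 50 kb by distance from the start of EGFR (horizontal axis, kb), for H3K18bu above and H4K12bu below, in CCD841 cells. The grey band is EGFR and the green band VOPP1. Counts reach 9 for H3K18bu and 12 for H4K12bu in EGFR and 9 for both marks in VOPP1, and both marks have regions before EGFR and in every bin between the genes.

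ERBB2, the ligandless partner receptor, had a different balance of the marks. Its window of 62.5 kb on chromosome 17 held 4 and 5 H3K18bu regions in the replicates and 2 in both, but 16 and 16 H4K12bu regions and 9 in both. In regions per 100 kb this was 3.2 for H3K18bu, near the all-gene median of 3.78, and 14.4 for H4K12bu, higher than at 93.4% of genes. Both H4K12bu libraries thus lay above both H3K18bu libraries, which also held at EGFR and HBEGF, 3 of the 9 genes, beside 43.6% of all genes. The reverse order held at AREG and EREG, 2 of 9, beside 16% of all genes. Of the 9 H4K12bu regions, 6 lay within 1 kb of a transcript start, and the strongest, from 39715648 to 39717045, had pileups of 40 and 18 and −log10 p of 15.5 and 9.36. The pair of H3K18bu regions had pileups of 11 to 13. The window also holds GRB7, MIEN1 and PGAP3, so some of these regions may be nearer to those genes, and the outermost ERBB2 start lies 7.4 kb before the first of the 6.

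ERBB3, the receptor that recruits PI3 kinase, had few regions. The replicates had 6 and 4 for H3K18bu and 3 and 9 for H4K12bu, and each mark had 1 region of both replicates, in the flank past the 3′ end of the gene from position 56104136 of chromosome 12. H3K18bu had pileups of 9 and 12 there, and H4K12bu had 12 and 6. PA2G4 lies in the same window, so these flank regions may be nearer to that gene than to ERBB3. No start region of both replicates was found at ERBB3 for either mark, although single libraries had 1 to 5 regions at a start.

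Among the ligands, H3K18bu had 10 regions of both replicates and H4K12bu had 3, but single libraries did not all follow this order. At EGF and TGFA H4K12bu replicate 2 had the most. AREG, which encodes amphiregulin, had 5 and 5 H3K18bu regions in its replicates and 3 in both, against 0 and 4 H4K12bu regions and none in both. Its 10.0 H3K18bu regions per 100 kb were higher than at 87.4% of genes. The AREG start region, from 74444874 to 74445605 on chromosome 4, had pileups of 10 and 8 and −log10 p of 6.54 and 4.93, and the other pair of regions lay in the flanks. EREG, which encodes epiregulin and lies in the same ligand cluster, had 4 and 4 H3K18bu regions and 2 in both, of which 1 was at the start with pileups of 9 and 7. Each H4K12bu replicate had 1 EREG region, at different places. Both genes thus had H3K18bu start regions, but with pileups below the median of their libraries.

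EGF had 6 and 2 H3K18bu regions and 2 in both, both at transcript starts, with pileups of 9 and 7 at the outermost start and 13 and 9 at an internal start 67.6 kb into the gene. Its H4K12bu replicates had 3 and 9 regions and shared none. TGFA, which encodes transforming growth factor alpha, had 2 and 3 H3K18bu regions and 2 and 8 H4K12bu regions, with 1 intronic region of both replicates for each mark at different places. The H4K12bu region of TGFA, with pileups of 10 and 5, did not have q below 0.05 in replicate 2. HBEGF, the heparin-binding ligand, had 4 and 4 H3K18bu regions with 2 in both, both in its flank, and 6 and 6 H4K12bu regions with 2 in both. One HBEGF region for H4K12bu, from 140341211 to 140342352 on chromosome 5, lay at a transcript start with pileups of 24 and 8. BTC, which encodes betacellulin, had 0 and 2 H3K18bu and 0 and 1 H4K12bu regions and none in both. At the ligands the 2 replicates of H4K12bu often differed, and the highest pileup of any replicate 2 region was 5 to 7 at EGF, TGFA, AREG, EREG and BTC.

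The other genes of the pathway, a list of 31, mostly had regions. For H3K18bu, 29 of 31 had a region of both replicates in the window and 21 had a start region, beside 75.8% and 44% of all genes. For H4K12bu, 28 and 15 did, beside 76.6% and 35.4%. The median gene of the list had 4.39 and 6.30 regions per 100 kb, against 3.78 and 4.56 over all genes. Of the 16 adaptors and effectors, 10 had an H3K18bu start region, among them GRB2, SOS1 and STAT3, and 9 had an H4K12bu start region, among them the same 3. PLCG1, phospholipase C gamma, stood high with 16 and 15 H3K18bu and 27 and 24 H4K12bu regions in its replicates and 10 and 12 regions of both, above 93.3% and 94.3% of genes. Of the 7 negative regulators, which limit receptor signalling, 6 had an H3K18bu and 4 an H4K12bu start region. LRIG1, a transmembrane inhibitor of the receptors, had 18 and 14 regions of both replicates, from 31 and 33 H3K18bu and 31 and 33 H4K12bu regions. Both sheddases, ADAM10 and ADAM17, had H3K18bu start regions, and ADAM17 also had an H4K12bu start region. ERBB4, the remaining receptor, had 3 and 4 regions of both replicates in a window of 1183 kb, or 0.254 and 0.338 per 100 kb. NRG2, a ligand of ERBB3 and ERBB4, had 26 and 29 H3K18bu regions with 18 in both, against 1 and 14 H4K12bu regions with 1 in both, and EPGN had none in both for either mark.

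In mouse large intestine, Egfr again had the most regions of the 9 genes, in the longest window, 181.7 kb. It lies on the forward strand of chromosome 11 from 16752203 to 16913907 in GRCm38. With all peaks counted, H3K18bu had 16 and 19 regions in its replicates and 4 of both, and H4K12bu had 13 and 25 with 4 of both. H3K18ac had 33 and 51 with 12 of both, and H4K12ac had 49 and 36 with 8 of both. Per 100 kb, the regions of both replicates were 2.20 for each Kbu mark, 6.60 for H3K18ac and 4.40 for H4K12ac, and for every mark at least 1 of the other 8 genes was higher: Areg with 3.47 for H3K18bu, Erbb3 with 2.38 for H4K12bu, Ereg with 7.69 for H3K18ac and Egf with 5.12 for H4K12ac. When each library gave an equal number of strongest regions, the Egfr regions of both replicates numbered 3 for H3K18bu, 3 for H4K12bu, 4 for H3K18ac and 2 for H4K12ac. With q below 0.05 they numbered 1, 0, 3 and 2 in the same order. Most Kbu regions rested on a single read, since the pileup was 1 at 13 of 16 and 16 of 19 Egfr regions in the H3K18bu libraries and at 11 of 13 and 18 of 25 in the H4K12bu libraries. A region of both replicates was found at 6 of the 9 genes for H3K18bu, beside 20.5% of all genes, and at 4 for H4K12bu, beside 33.7%. For H3K18ac it was found at 9, beside 58.7%, and for H4K12ac at 9, beside 61.4%. With q below 0.05 in both replicates, H3K18bu had a region left at Egfr and Hbegf only, and H4K12bu at no member. H3K18ac then had one at every member except Egf and Hbegf, and H4K12ac at Egfr, Ereg and Btc. The shares of all genes above are without this threshold. A region within 1 kb of a gene end was found at 3 of 9 genes for H3K18bu (Areg, Egf and Egfr), beside 6.84% of all genes, and at 2 for H4K12bu (Egfr and Tgfa), beside 16.4%. For H3K18ac there were 3 (Areg, Btc and Egfr), beside 24.4%, and for H4K12ac there were 5, these 3 with Egf and Ereg, beside 27.8%. Either end of a gene was used because strand and exons were not in the mouse gene table for all members.

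At 2 places in the Egfr window all 4 marks had a region of both replicates, which 58 of 21887 genes or 0.265% had. A single such place or more was found at 817 genes or 3.73%, and among the 9 genes Erbb3 was the other, with 1 place. These shares were not limited to long windows, and the Egfr window of 181.7 kb compares with a median of 37.2 kb over all mouse genes. The first Egfr place, from 16751660 to 16753036, covered the start of the gene. The 250 bases before that start, from the RefSeq promoters of GRCm38.p6 at chr11:16751953-16752202, are shown because regions of all 4 marks reached into them, and the capitals are the 174 bases inside the regions of all 4 marks.
Egfr promoter: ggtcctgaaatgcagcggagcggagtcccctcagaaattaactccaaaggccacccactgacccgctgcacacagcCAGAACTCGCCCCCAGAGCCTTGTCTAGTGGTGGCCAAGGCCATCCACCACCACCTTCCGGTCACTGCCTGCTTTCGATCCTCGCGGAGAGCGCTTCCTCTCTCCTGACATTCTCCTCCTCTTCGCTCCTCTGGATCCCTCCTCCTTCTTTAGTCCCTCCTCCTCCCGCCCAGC
At this place H3K18bu had pileups of 2 and 3 in replicates 1 and 2, H4K12bu had 2 and 6, H3K18ac had 5 and 5, and H4K12ac had 4 and 12. The lower −log10 p of the replicates was 5.39, 5.39, 5.62 and 5.46, and stood in the top 2.97%, 3.79%, 5.82% and 4.81% of all regions of each mark. None of the AP-1, CRE, TEAD, TCF/LEF and KLF motifs above was found in these 250 bases, where 4.46%, 1.55%, 12.6%, 3.21% and 3.2% of 32851 mouse promoters held them.

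The second place lay inside the gene from 16800387 to 16801100, about 48.5 kb after the start. There H3K18bu had its strongest Egfr region, from 16800560 to 16800917, with pileups of 5 and 4, −log10 p of 7.68 and 7.40 and rank 59 of 8319. H4K12bu had pileups of 2 and 2, H3K18ac 7 and 6, and H4K12ac 2 and 4. It was the single Egfr region with q below 0.05 in both H3K18bu replicates, and no Egfr region of H4K12bu had that. The remaining 2 H3K18bu and 2 H4K12bu regions of both replicates each had a pileup of 1 in at least 1 replicate. At Erbb3 the shared place, from 128583556 to 128584057 of chromosome 10, had H3K18bu pileups of 2 and 1, H4K12bu pileups of 2 and 2, H3K18ac pileups of 8 and 6 and H4K12ac pileups of 3 and 7.

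**Figure D4:**
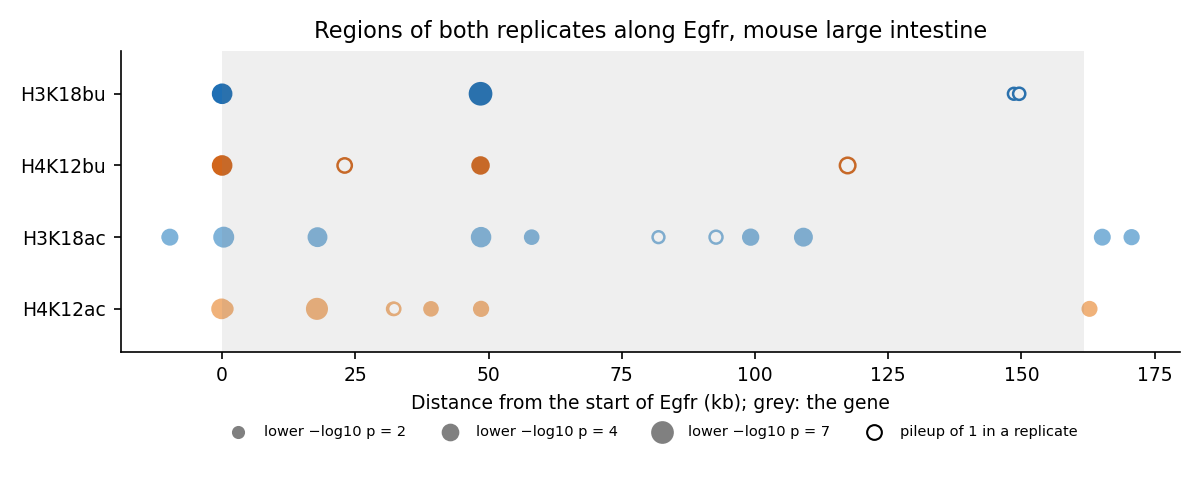
Regions of both replicates along Egfr in mouse large intestine by distance from the gene start (horizontal axis, kb), with 1 row per mark. The area of a point grows with the lower −log10 p of the replicates, and open points have a pileup of 1 in a replicate. All 4 marks have a filled point at the start and at 48.5 to 48.6 kb.

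At the other mouse genes, regions of both replicates were few. Erbb2 had 1 region for H3K18bu and 1 for H4K12bu, with a pileup of 1 in every replicate, and 3 and 1 for H3K18ac and H4K12ac. Areg had a region at its start for H3K18bu, H3K18ac and H4K12ac, with pileups of 1 and 4, 2 and 3, and 2 and 2, and no H4K12bu region. Egf had 1 H3K18bu region and 5 H4K12ac regions, and Tgfa had no H3K18bu and 2 H4K12bu regions. Btc and Ereg had no Kbu region of both replicates, but 3 and 3 H3K18ac and 2 and 1 H4K12ac regions. Hbegf had 1 region each for H3K18bu, H3K18ac and H4K12ac, all in its flank, of which the H3K18bu region had pileups of 4 and 3 and q below 0.05 in both replicates. Of the 31 other pathway genes, 10 had an H3K18bu region of both replicates, 14 an H4K12bu region, 24 an H3K18ac region and 25 an H4K12ac region, beside 20.5%, 33.7%, 58.7% and 61.4% of all genes. Epithelial markers had a region at 7 of 8 genes for H3K18bu and 4 of 8 for H4K12bu, mesenchymal and fibroblast markers at 1 and 3 of 8, smooth muscle markers at 0 and 1 of 4, immune markers at 0 and 0 of 4 and goblet markers at 0 and 1 of 2. For H3K18ac and H4K12ac the counts were 8 and 7 of 8 epithelial, 3 and 3 of 8 mesenchymal and fibroblast, 3 and 4 of 4 smooth muscle, 2 and 3 of 4 immune and 1 and 1 of 2 goblet markers.

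To compare Kbu with Kac, the same number of strongest regions, 50645, was taken from each mouse library, since the Kac lists stop at a limit of 300000 peaks and the Kbu lists do not reach it. This number was every region of H3K18bu replicate 2 and most of the 50909 of H4K12bu replicate 1 and the 60776 of H3K18bu replicate 1. H4K12bu replicate 2 had 96332 regions and the Kac libraries 297745 to 299480, so the cut reached further down the Kbu lists. Regions tied in p at the cut were drawn at random with a fixed seed, and other draws were not tried. With this number the Egfr window held 10 and 19 regions in the libraries of H3K18bu, 13 and 10 in those of H4K12bu, 15 and 17 in those of H3K18ac and 9 and 12 in those of H4K12ac. The mean over Kbu libraries was 13 ± 4.24 (SD, n = 4), that over Kac libraries was 13.2 ± 3.50 (SD, n = 4), and the groups overlapped. The difference of −0.25 regions was smaller than the SD of either group. Here n counts libraries of 2 marks, while each condition had 2 mice, so libraries of a group can share a mouse. None of the 9 genes had Kbu and Kac libraries that did not overlap, where 0.562% of all genes had every Kbu library above every Kac library and 0.375% the reverse. Erbb3 had the largest difference of the 9 relative to its spread, with 2, 7, 4 and 4 regions in the Kbu libraries against 4, 2, 0 and 1 in the Kac libraries, or 2.50 more regions on average, and its groups overlapped too. Over all 21887 genes, a two-sided exact permutation test with 70 assignments called 0 at an adjusted p of 0.05, and 205 or 0.937% had an unadjusted p below it. The smallest p that this test allows is 0.0286, and with 2 mice against 2 an exact test cannot go below p = 0.333. A gene with the smallest p passes the adjustment only if most of all genes reach that p too. The 0 calls therefore cannot tell whether any single gene differed.

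With every listed region in place of equal numbers, the Egfr difference was −24 regions, each Kac library being above each Kbu library. Of the 9 genes Tgfa had the same order of libraries, with a difference of −10.8 regions. In that count 28.7% of all genes had every Kac library above every Kbu library and 0.0228% the reverse, so the count did not set Egfr or Tgfa apart from the rest of the lists.

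**Figure D5:**
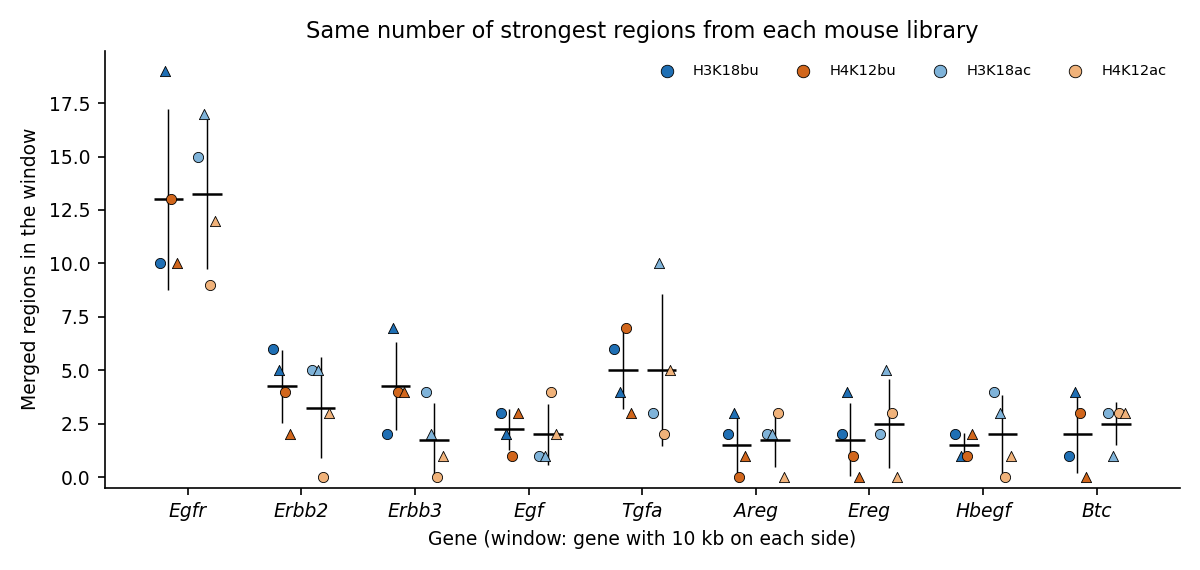
Merged regions in the windows of the 9 mouse genes (vertical axis) when each library gives its 50645 strongest regions, with Kbu libraries left and Kac libraries right for each gene. Circles are replicate 1 and triangles replicate 2, and horizontal and vertical lines give the mean and the SD of 4 libraries. The points of the groups overlap at every gene.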

How the data were processed

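CUT&Tag peak lists of 12 libraries were used, 4 from CCD841 cells and 8 from mouse large intestine, grouped by the sample labels. The authors aligned reads with Bowtie2 2.3.1 after trimming with cutadapt 1.9.1 and called peaks with MACS2 2.1.0 in each library without a control, to hg38 or mm10 by the submitters' processing notes. They deposited 1 list per library with a p-value below 0.01, a limit of 300000 peaks and artifact regions removed. Each peak holds the deposited fold ratio over the local background, −log10 p, −log10 q, a display score and the summit. The lists hold no counts, so no count model was fitted and the study's DiffBind comparison was not repeated.

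Pileup and background were solved from the deposited fold and −log10 p, with background taken per peak. The solver, the merging and the permutation test were tested on simulated data. Genes came from GENCODE 44 and, for mouse, the RefSeq table of GRCm38.p6, which gives names, gene ends and some strands. Overlap meant at least 1 bp. The members, gene lists and tests were chosen with earlier results of these data known. Named were the 9 members, EGFR intron regions in the top 1% or 5% by strength, 31 pathway genes, cell type markers, the 3 genes nearest to EGFR among windows of at least 100 kb, and 5 motifs. The 4 Kbu and 4 Kac mouse libraries were compared by a two-sided exact permutation test for every gene with Benjamini-Hochberg adjustment, and the members, chosen with their counts known, are given without its p-values. No source names separate cultures for the CCD841 replicates, so their spread may be technical. Between 0.0884% and 0.426% of peaks had identical coordinates in 2 replicates, so no library was a copy. Alternatives were q thresholds of 0.05 and 0.01, equal numbers of strongest regions, overlap of a set share of the shorter region, no flanks, a start window of 3 kb, outermost starts, a replicate block and leaving out replicates. A pileup of at least 2 was added after the data were seen. Python 3.11.15, numpy 2.4.6, pandas 2.3.3, scipy 1.17.1 and bedtools 2.31.1 were used.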

Additional observations from a re-analysis of the deposited data

Results flagged for a closer look

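With the same number of strongest regions from each library, the count of Btc regions in the Kac libraries held a library far from the others, H3K18ac replicate 2 with 1 region where the other Kac libraries had 3 each. With counts this small and the others tied, any different count would stand apart. Chance alone sets a library apart in this way in about 1 in 20 groups, a rate that need not hold for tied counts. The 9 genes were looked at in both the Kbu and the Kac libraries.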

How the results depend on the processing

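In CCD841 cells, for H3K18bu, the 31 EGFR regions of both replicates became 21 with equal numbers of strongest regions and 29 to 31 under the q thresholds, the wider overlap and no flanks, and for H4K12bu 32 became 22 at q below 0.01, 21 with equal numbers (103564 per library) and 27 to 31 otherwise. Single replicates held 46 to 58 regions for H3K18bu and 66 to 67 for H4K12bu. Genes with a start region of both replicates, 5 for H3K18bu and 3 for H4K12bu, became 2 and 2 with equal numbers and 4 and 0 at the outermost start of the gene. Single replicates had such a region at 6 to 7 and at 5 to 5 genes. In mouse, Egfr regions of both replicates fell from 4 to 1 for H3K18bu, from 4 to 0 for H4K12bu, from 12 to 3 for H3K18ac and from 8 to 2 for H4K12ac with q below 0.05. With equal numbers H3K18ac and H4K12ac had 4 and 2, and H3K18bu and H4K12bu had 3 and 3. With a pileup of at least 2, chosen after seeing the data, H3K18bu and H4K12bu had 2 and 2, and H3K18ac and H4K12ac had 10 and 6. Single replicates held 16 to 19, 13 to 25, 33 to 51 and 36 to 49 regions in the order H3K18bu, H4K12bu, H3K18ac and H4K12ac. The cause of these shifts was not tested, except that stricter settings keep fewer peaks.

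The Egfr difference between Kbu and Kac was −0.25 regions with equal numbers and reversed to 0.5 without flanks. It was −24 with all regions and −7.75 with q below 0.05, where the Kac lists hold more regions. At q below 0.05 the Kbu libraries had 1, 2, 0 and 1 Egfr regions and the Kac libraries 8, 8, 4 and 15, without overlap. The share of all genes with this order was not computed at that threshold, so these counts do not set Egfr apart. With equal numbers, leaving out each library in turn gave −2.25 to 1.0. The sign was above 0 in 4 of 8 cases, those without H3K18bu replicate 1, H4K12bu replicate 2 or either H3K18ac replicate. With the replicate number as a block the difference was again −0.25, and the 36 assignments within numbers cannot give an exact p below 0.0556. The numbers did not pair the mouse libraries: deviations of same-numbered libraries from their mark's mean correlated at −0.172 to 0.0423 across genes. For the CCD841 libraries the value was 0.145, from 2 numbers, and no test between the marks was made there.

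Read totals were not used here. Most peaks of the mouse Kbu lists have a pileup of 1, and in CCD841 cells H4K12bu replicate 2 has the lowest median pileup, so calls there rest on few reads. The CCD841 lists ended at a lowest −log10 p of 2.97 to 5.31, above their stated threshold of p below 0.01, so a region missing from them is not shown to have missed that threshold. No untreated cells or input libraries were analysed here, and lists of called peaks cannot give levels between libraries.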
